A study of Rattus norvegicus with 2 samples.

Results

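Amino acid transporters of 7 solute carrier families, Slc1, Slc3, Slc6, Slc7, Slc36, Slc38 and Slc43, were read across the epithelial cell classes of the rat jejunum. Members were taken by gene symbol alone, as every gene whose symbol is the family name followed by the letter a and a number, which gave 61 of the 32883 genes in the count matrices. A UMI (unique molecular identifier, the tag that marks each captured transcript) was found in the 9 cell classes described below for 41 members in rat 1 and 40 in rat 2. The level of a member is given as CPM, the UMIs of that gene summed over the cells of a class in 1 rat, scaled to a common total of UMIs of all genes (counts per 1000000). Because each UMI tags the 3′ end of a single transcript, CPM values of different genes were compared without a correction for length.

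Absorptive enterocytes take up amino acids from the gut lumen through sodium- and proton-coupled carriers and exchangers in the brush border, and pass them on to the blood through exchangers and uniporters in the basolateral membrane. Several of these carriers are pairs, in which a heavy subunit (Slc3a1 or Slc3a2) carries a light subunit from the Slc7 family to the membrane. Dividing cells rely on another set, the amino acid importers and exchangers found in nearly every growing cell, and the Slc6 family also holds carriers for neurotransmitters, creatine, taurine and serotonin.

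The cells came from the proximal jejunum of 2 male Sprague-Dawley rats, 6 to 8 weeks old, without treatment or genetic change and fasted overnight, with 1 droplet-based library per rat. All class comparisons were made within and between these 2 rats, so that n = 2 in every class. All classes were fitted together, so that p-values rest on the spread between the 2 animals pooled over all classes, not only those compared. The main fit had no term for the rat, although the classes of a rat come from the same animal. The epithelium was released with EDTA and dispase, and no sort or gate is described for these cells.

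Rat 1 held 12033 barcodes with 99986348 UMIs and rat 2 held 8252 with 66469907, of which 5988 and 2230 passed the limits of more than 5000 UMIs and at most 40% mitochondrial UMIs, and 28 barcodes were shared by the libraries. Clustering was done with the 61 members kept out, and 5544 and 1506 cells fell into classes named from their markers. There were 1123 and 44 crypt-like cells, 1568 and 147 early, 1423 and 291 middle and 1035 and 679 late enterocytes, 172 and 9 secretory progenitor-like, 167 and 134 goblet/Paneth-like, 21 and 11 enteroendocrine-like (EEC-like), 28 and 119 tuft-like and 7 and 72 CHE-like cells (CFTR High Expressers, a cell type rich in Cftr), in rats 1 and 2. The enterocytes were divided at cut points common to both rats on a score of 14 villus genes that holds no member, and the median score of early enterocytes was 1.28 in rat 1 and 1.74 in rat 2. The crypt-like class rested on 44 cells in rat 2, in which 4 hemoglobin-related genes summed to 13478 CPM against 336 in rat 1. The summed level of 8 leukocyte markers was 275 and 269 CPM in crypt-like cells, with 7 and 6 of the 8 detected, and 2231 and 1011 in late enterocytes, with 7 and 6 detected, whereas the defining marker Ptprc was at 1.04 and 3.35 CPM in the former and 0.942 and 2.61 in the latter; their part in the results below was not tested.

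Summed over all 61 members, transporter transcripts were several times more abundant in middle and late enterocytes than in crypt-like cells. The sum was 468 CPM in crypt-like cells of rat 1 and 553 in rat 2, 1135 and 1795 in early, 2798 and 2620 in middle and 3257 and 2358 in late enterocytes. It lay between 432 and 545 CPM in both rats for the secretory progenitor-like, goblet/Paneth-like, tuft-like and CHE-like classes, and at 467 and 1283 CPM in EEC-like cells. The late sum was above the middle sum in rat 1 and below it in rat 2.

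The composition of that sum changed with the class. Slc3a2, the heavy subunit shared by many exchangers, was among the 3 most abundant members in every class except the CHE-like class, and held the first place from crypt-like cells to middle enterocytes. In late enterocytes the creatine transporter Slc6a8 led with 742 and 575 CPM, ahead of Slc3a2 with 612 and 350 and of the neutral amino acid carrier Slc6a19 with 411 and 306. Slc38a2, a sodium-coupled importer of small neutral amino acids, was among the 3 leading members of crypt-like, secretory progenitor-like, goblet/Paneth-like and CHE-like cells.

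Of the 61 members, 28 had enough UMIs to be tested, 15 had at least 1 UMI but too few, and 18 had none in any of the 9 classes of either rat. The 18 included the dopamine and noradrenaline transporters Slc6a3 and Slc6a2, the glial glutamate transporter Slc1a2 and the arginine carriers Slc7a2 and Slc7a3, and the others were Slc1a7, Slc36a2, Slc36a3, Slc38a5, Slc6a11, Slc6a12, Slc6a13, Slc6a15, Slc6a16, Slc6a17, Slc7a12, Slc7a13 and Slc7a14. A count of 0 in late enterocytes allows up to 0.236 CPM in rat 1 and 0.223 in rat 2, the level of 3 UMIs. The 15 included Slc1a3, Slc1a6, Slc36a4, Slc38a3, Slc38a4, Slc38a6, Slc38a8, Slc38a10, Slc38a11, Slc43a1, Slc43a3, Slc6a18, Slc6a20 and Slc7a10. Among them, Slc6a20, an imino acid carrier of the brush border, stayed between 0 and 4.16 CPM in all 18 sums and peaked in middle enterocytes of rat 2 with 34 UMIs. Slc38a10, singled out after its values were seen, was low and even, at 2.71 to 3.14 CPM in the crypt-like and enterocyte classes of rat 1 and 2.63 to 3.35 in those of rat 2.

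**Figure D1:**
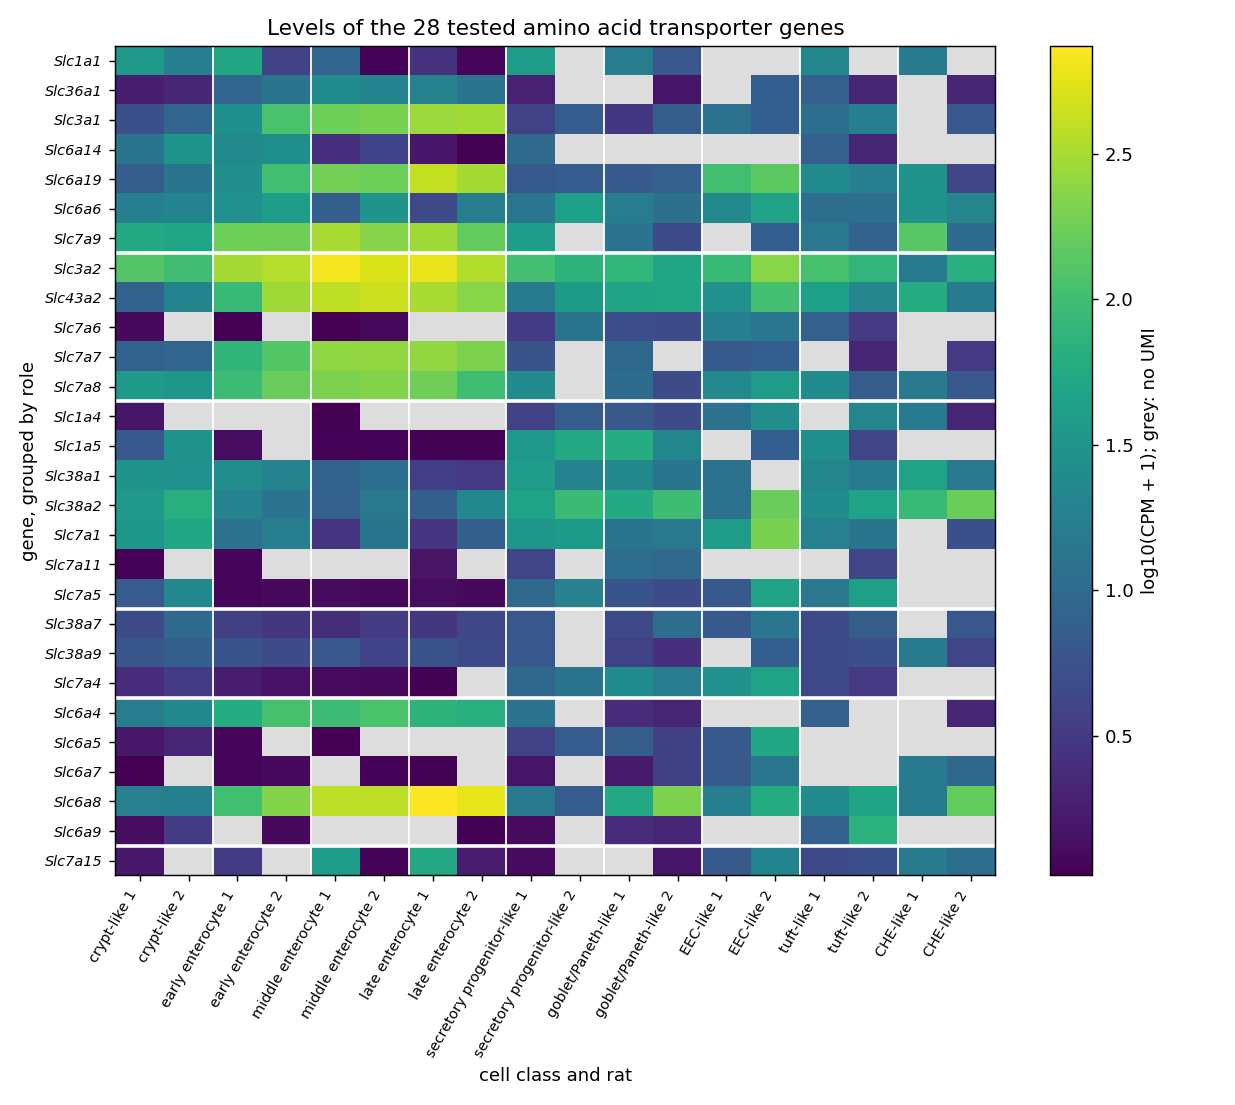
Colour shows log10 of CPM + 1 for the 28 tested members (vertical axis, grouped by role from brush border uptake at the top through basolateral, cell supply and lysosomal carriers to neurotransmitter and osmolyte carriers and Slc7a15 at the bottom) in 9 classes of rats 1 and 2 (horizontal axis), with grey where no UMI was found. Slc3a1, Slc6a19, Slc43a2, Slc7a7 and Slc6a8 brighten from crypt-like cells to late enterocytes in both rats, whereas Slc1a5, Slc7a1 and Slc7a5 darken.

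The change from crypt to villus was examined by setting late enterocytes against crypt-like cells. Of the 28 members tested, 11 were higher in late enterocytes, against a background of 21.2% of the 10159 genes tested, and 7 were lower, against 26.9% (edgeR's quasi-likelihood test, Benjamini-Hochberg adjusted p under 0.05). The share of members that were lower was thus near that of all genes. The CPM values in the text are scaled to total UMIs only, whereas log2 fold changes and tests also use TMM factors, which were 1.16 and 1.38 for the crypt-like and 0.619 and 0.563 for the late sums, so that a log2 fold change here is more positive than the log2 ratio of the CPM values. The median log2 fold change of the tested members was 0.31, beside -0.15 over all genes tested. Scaling had a large effect on the whole-genome split. With TMM scaling 2155 genes were higher and 2733 lower, whereas with total UMIs 1064 were higher and 4535 lower and the all-gene median fell to -1.22; the members then split into 10 higher and 10 lower. DESeq2 gave an all-gene median of -0.32 and the same counts of 11 and 7 members, whose median was then -0.05.

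Of 8 brush border uptake carriers 7 were tested, of which 4 rose and 1 fell, beside 21.2% and 26.9% of all genes. Slc3a1, the heavy subunit of the cystine and dibasic amino acid exchanger, was at 4.22 CPM in crypt-like cells of rat 1 and 7.82 in rat 2, and at 272 and 298 in late enterocytes (log2 fold change 6.80 ± 0.80, SE, adjusted p = 6.94e-05). Its light subunit Slc7a9 started higher, at 56.4 and 48.0 CPM, and reached 291 and 157 (3.15 ± 0.89, adjusted p = 0.00969). The Slc7a9 call was lost with total UMI scaling (adjusted p = 0.0567) and without the crypt-like sum of rat 1 (0.0513) or of rat 2 (0.0671).

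Slc6a19, the main sodium-coupled carrier of neutral amino acids in the brush border, went from 6.30 and 12.3 CPM to 411 and 306 (log2 fold change 6.47 ± 0.76, adjusted p = 6.94e-05). Slc36a1, a proton-coupled carrier of small amino acids, was less abundant, at 0.809 and 1.12 CPM in crypt-like cells against 18.4 and 12.1 in late enterocytes (5.11 ± 0.72, adjusted p = 0.000162). For these called carriers the late value of each rat lay far above both crypt-like values, which adds no support of its own. Slc6a14, a broad carrier of neutral and cationic amino acids, moved the other way, from 12.5 and 30.2 CPM to 0.550 and 0.0744, the latter being 1 UMI (-4.87 ± 0.91, adjusted p = 0.00142).

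The remaining brush border members did not pass the test. Slc1a1, the glutamate and aspartate carrier, had 35.8 and 16.8 CPM in crypt-like cells and 1.73 and 0.149 in late enterocytes (log2 fold change -3.84 ± 1.67, adjusted p = 0.0726). The taurine carrier Slc6a6 had 16.6 and 19.0 CPM in crypt-like cells and 3.45 and 16.1 in late enterocytes, lower in both rats before TMM scaling, and its log2 differences after it were -1.30 in rat 1 and 1.03 in rat 2 (0.28 ± 0.71, adjusted p = 0.775).

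Of 6 basolateral members 5 were tested, 4 of which rose and none fell, beside 21.2% and 26.9% of all genes. The fifth, Slc7a6, had 4 and 0 UMIs in crypt-like cells and none in late enterocytes. Slc3a2 went from 127 and 99.4 CPM to 612 and 350 (log2 fold change 3.14 ± 0.59, adjusted p = 0.000898). Its cationic amino acid partner Slc7a7 went from 6.93 and 7.82 to 254 and 203 (6.03 ± 0.87, adjusted p = 0.000184), and its neutral partner Slc7a8 from 34.7 and 32.4 to 179 and 98.7 (3.10 ± 0.68, adjusted p = 0.00230). Slc43a2, a uniporter that lets neutral amino acids out of the cell, went from 7.10 and 19.0 CPM to 318 and 232 (5.63 ± 0.78, adjusted p = 0.000156). The 2 crypt-like and the 2 late values did not overlap for any of these 4 genes, which adds no support, since they were picked as called.

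Of 14 carriers that supply growing cells 7 were tested, none rose and 4 fell, beside 21.2% and 26.9% of all genes. Slc1a5, a glutamine and neutral amino acid exchanger, was at 5.37 CPM in crypt-like cells of rat 1 and 29.0 in rat 2, and had 1 UMI in the late enterocytes of each rat, 0.0785 and 0.0744 CPM (log2 fold change -6.24 ± 1.17, adjusted p = 0.00101). Over enterocytes of all maturities, with 10 and 2 UMIs, the crypt-like level was 29.0 times (95% counting interval 15.1 to 62.5) and 380 times (95.2 to 3304) the enterocyte level. Such intervals cover counting error only. Of the 26 UMIs in crypt-like cells of rat 2, 18 came from 15 cells of 1 cluster in which the goblet transcripts Tff3, Clca1 and Fcgbp were at 6899, 2567 and 2492 CPM, against 260, 74.8 and 72.8 in rat 1, and Slc1a5 was also high in goblet/Paneth-like cells; the part of these transcripts in the rat 2 level was not tested.

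Slc7a5, a large neutral amino acid exchanger that pairs with Slc3a2, went from 5.95 and 21.2 CPM to 0.314 and 0.223 (log2 fold change -4.31 ± 0.85, adjusted p = 0.00134). Slc38a1, a glutamine importer, went from 30.0 and 27.9 to 2.51 and 2.08 (-2.58 ± 0.54, adjusted p = 0.00165). The arginine and lysine carrier Slc7a1 went from 33.0 and 52.5 to 1.88 and 6.55 (-2.16 ± 0.79, adjusted p = 0.0337), a call lost without either crypt-like sum and without the late sum of rat 1 (adjusted p up to 0.210). Slc38a2 had 34.4 and 63.7 CPM in crypt-like cells and 6.67 and 21.7 in late enterocytes, and did not pass the test (-0.60 ± 0.77, adjusted p = 0.539). Slc1a4, a serine and alanine exchanger, had 0.520 CPM in crypt-like cells of rat 1, no UMI in those of rat 2 and none in late enterocytes (adjusted p = 0.0784), and Slc7a11, the cystine and glutamate exchanger, had 2 and 0 UMIs in crypt-like cells and 6 and 0 in late enterocytes.

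Among the carriers of neurotransmitters and osmolytes, 5 of 21 members were tested. Slc6a8 went from 17.1 and 16.8 CPM to 742 and 575 (log2 fold change 6.35 ± 1.00, adjusted p = 0.000304), and the serotonin transporter Slc6a4, which clears serotonin at the mucosal surface, from 15.5 and 21.2 to 71.6 and 65.1 (3.02 ± 0.66, adjusted p = 0.00236). The glycine transporter Slc6a5 was called lower, but it had only 0.578 and 1.12 CPM in crypt-like cells and no UMI in late enterocytes, and the call held in 7 of 17 alternatives. Of the 3 lysosomal and organelle members tested, Slc7a4, a relative of the arginine carriers whose own substrate is unsettled, fell from 1.39 and 2.23 CPM to 0.0785 and 0 (-3.90 ± 0.85, adjusted p = 0.00248), whereas the lysosomal carriers Slc38a7 and Slc38a9, named after their values were seen, were at 1.96 to 8.94 CPM in both classes (adjusted p = 0.989 and 0.448).

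**Figure D2:**
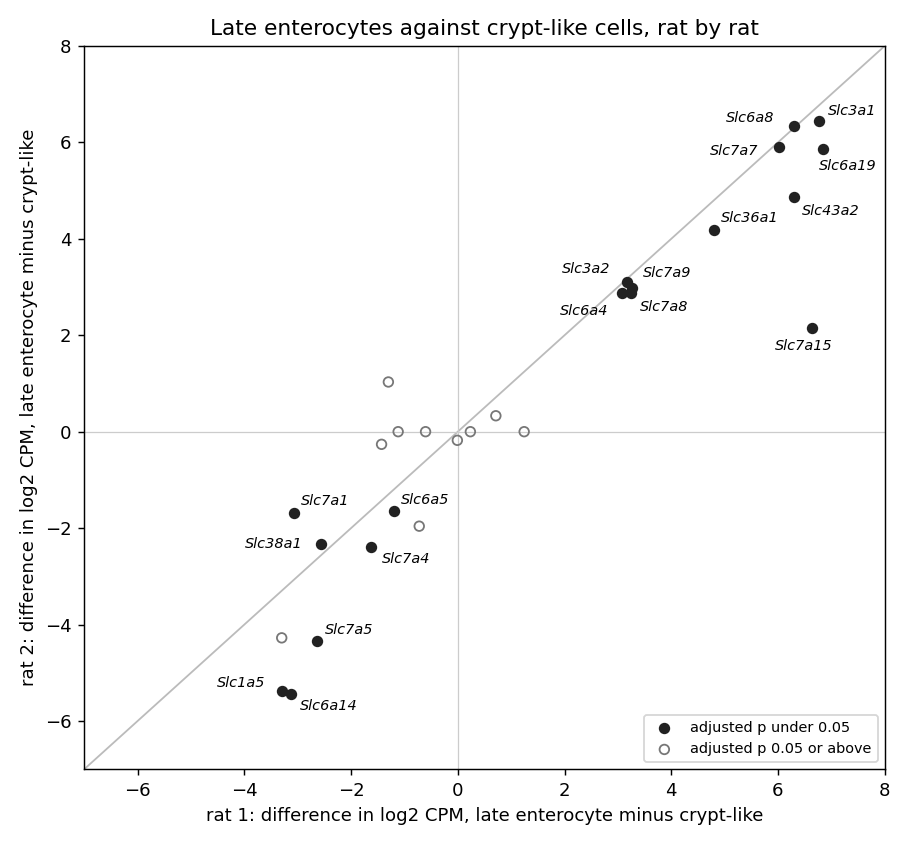
Each point is 1 of the 28 tested members, placed by the difference in log2 CPM between late enterocytes and crypt-like cells in rat 1 (horizontal axis) and rat 2 (vertical axis), computed after TMM scaling with a prior count of 2. The line marks equal differences, filled points had an adjusted p under 0.05 in edgeR's test, and Slc7a15 lies far below the line with 6.63 in rat 1 and 2.15 in rat 2.

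Slc7a15, an aromatic amino acid carrier related to the Slc7 light subunits, differed between the animals. It was at 53.8 CPM in late enterocytes of rat 1 and 0.744 in rat 2, a ratio of 72.2 (95% counting interval 39.0 to 151), and at 37.7 and 0.122 CPM in middle enterocytes. Its call in late enterocytes against crypt-like cells (log2 fold change 6.58 ± 2.11, adjusted p = 0.0190) was lost without the late sum of rat 1 and without either crypt-like sum, with adjusted p up to 0.551. Slc1a1 showed a difference of the same sign among early enterocytes, with 51.9 CPM in rat 1 and 2.85 in rat 2, a ratio of 18.2 (10.6 to 34.3). Its crypt-like levels stood at 2.13 times (1.28 to 3.84). The early enterocytes also differed in maturity, with median scores of 1.28 in rat 1 and 1.74 in rat 2. Over 10 steps of that score, Slc1a1 fell in rat 1 from 78.6 CPM at step 1 to 9.14 at step 5. The part of maturity in the ratio of 18.2 was not tested. A single library was made per animal, so that animal and library cannot be told apart.

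Promoters of members that moved along this axis are shown because several motifs of gut and amino acid response factors could be looked for in them. RefSeq sequences (build GRCr8, 250 bases before to 50 after the transcript start) were found by symbol for 45 of the 61 members; the count matrices were made on rn6, so these coordinates are not those of the deposited files. Both strands were searched for CAAAGTCCA (HNF4), TGATGNAAN (amino acid response element bound by ATF4) and TGACNNNGC (antioxidant response element, NRF2). The intestinal CDX motif was searched as TTTATGG. Sites of the GATA factors, which are active in the small intestine, were searched by the letters AGATAA. Overlaps between motifs were not removed. Capitals mark a match to the HNF4 motif in Slc3a1, to GATA in Slc6a19 and to the amino acid response element in Slc38a1 and Slc7a1. Matches to the NRF2 and CDX letters were not marked. Of the promoters shown, those of Slc3a1 and Slc7a1 also held NRF2 letters.
Slc3a1 (chr6:15394700-15394999, minus strand): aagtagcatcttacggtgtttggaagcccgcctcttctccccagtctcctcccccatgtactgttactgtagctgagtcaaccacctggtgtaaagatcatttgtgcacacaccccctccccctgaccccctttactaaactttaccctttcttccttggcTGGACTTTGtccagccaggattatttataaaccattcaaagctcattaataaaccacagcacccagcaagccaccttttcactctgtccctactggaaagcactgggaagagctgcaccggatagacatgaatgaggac
Slc6a19 (chr1:31414494-31414793, plus strand): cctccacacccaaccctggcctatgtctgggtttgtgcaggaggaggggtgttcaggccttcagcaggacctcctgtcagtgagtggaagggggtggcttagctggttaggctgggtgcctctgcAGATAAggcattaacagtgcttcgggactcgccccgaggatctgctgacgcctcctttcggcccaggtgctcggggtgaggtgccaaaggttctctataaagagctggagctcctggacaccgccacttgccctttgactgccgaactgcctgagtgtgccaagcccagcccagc
Slc7a9 (chr1:97246632-97246931, plus strand): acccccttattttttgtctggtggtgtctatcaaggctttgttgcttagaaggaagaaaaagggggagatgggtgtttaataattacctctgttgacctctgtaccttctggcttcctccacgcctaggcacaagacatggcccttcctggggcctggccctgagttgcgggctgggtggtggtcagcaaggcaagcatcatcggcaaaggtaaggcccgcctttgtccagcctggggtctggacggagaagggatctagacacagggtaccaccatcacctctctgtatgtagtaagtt
Slc38a1 (chr7:129681352-129681651, minus strand): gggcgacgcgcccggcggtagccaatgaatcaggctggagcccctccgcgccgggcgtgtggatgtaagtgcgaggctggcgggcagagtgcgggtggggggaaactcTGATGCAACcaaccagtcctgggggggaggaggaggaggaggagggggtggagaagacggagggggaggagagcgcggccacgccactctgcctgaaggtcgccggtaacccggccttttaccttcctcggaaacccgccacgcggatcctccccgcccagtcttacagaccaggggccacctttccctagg
Slc7a1 (chr12:11664238-11664537, plus strand): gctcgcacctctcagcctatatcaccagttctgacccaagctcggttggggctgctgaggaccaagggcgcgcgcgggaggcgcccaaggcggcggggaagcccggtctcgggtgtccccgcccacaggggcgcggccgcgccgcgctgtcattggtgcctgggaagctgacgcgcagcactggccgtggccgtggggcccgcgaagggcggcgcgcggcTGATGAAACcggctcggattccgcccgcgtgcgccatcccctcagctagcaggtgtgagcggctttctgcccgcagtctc

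The HNF4 letters were present in 0.375% of all 27457 promoters and, among members, only in that of Slc3a1; the promoter of its light subunit Slc7a9 held no match. The GATA letters stood in 11.3% of all promoters and in 1 of 45 members, Slc6a19. The amino acid response letters stood in 3.80% of all promoters and in those of Slc1a4, Slc38a1 and Slc7a1, of which the last 2 fell from crypt to villus. NRF2 letters were in 12.2% of all promoters and 8 of 45 members, and CDX letters in 823 of all promoters and 2 members (Slc36a2 and Slc6a14). HNF1 half-site letters were in 0.346% of all promoters and in 2 of 45 members, Slc7a12 and Slc7a15. A match in a 300-base window is a description of these letters only.

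Within the enterocytes, Slc6a19 and Slc3a1 of the brush border went on rising, while Slc6a14 and Slc38a1 fell. Late against early enterocytes gave 2 members higher, with a background of 4.74% of genes, and 3 lower, with a background of 6.21% (edgeR, adjusted p under 0.05), and the members' median log2 fold change was 0.63 beside -0.01 over all genes. Slc6a19 rose from 25.7 CPM in rat 1 and 102 in rat 2 to 411 and 306 (3.13 ± 0.63, adjusted p = 0.0111), and Slc3a1 from 27.0 and 111 to 272 and 298 (2.70 ± 0.64, adjusted p = 0.0196). Slc6a14 fell from 23.2 and 26.3 CPM (-5.60 ± 0.92, adjusted p = 0.00686) and Slc38a1 from 24.9 and 18.6 (-2.55 ± 0.53, adjusted p = 0.0127). Slc7a4, at 0.755 and 0.438 CPM in early enterocytes, was also called lower (-2.96 ± 0.86, adjusted p = 0.0435), in 4 of 18 alternatives. Slc6a8, at 101 and 217 CPM in early enterocytes, just missed the threshold (2.70 ± 0.83, adjusted p = 0.0503).

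These calls depended on how maturity was divided. No member was called when the stages were set within each rat, when they were taken from 16 brush border enzymes, or without the early sum of rat 1; 2 were called without the late sum of rat 1 and 1 without that of rat 2. With the rat as a block 6 were higher and 4 lower, beside 1322 genes higher and 1591 lower. With total UMIs in place of TMM the all-gene split went from 482 higher and 631 lower to 292 and 1910.

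Divided into 10 steps of equal cell number (both rats together) along the maturity score, the carriers peaked at different stages. Steps with fewer than 20 cells in a rat were left out, so that rat 2 starts at step 2. Slc6a14 peaked at step 2 with 31.6 CPM in rat 1 and 54.5 in rat 2, and by step 5 it was at 1.38 and 1.59. Slc38a1 and Slc7a1 were highest in the lowest step shown for each rat, with 29.1 and 21.5 CPM and with 19.5 and 28.7 CPM.

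Of the basolateral carriers, Slc43a2, Slc3a2, Slc7a8 and Slc7a7 were highest before the last step, as a description without a test. Slc43a2 was highest at step 6 in both rats, with 436 and 480 CPM, and that peak was 4.07 and 5.48 times its level in the last step. Slc3a2 was highest at step 7, with 716 and 546 CPM, 1.98 and 2.41 times the last step. Slc7a8 peaked at steps 7 and 5 with 230 CPM in each rat, 3.95 and 5.89 times the last, and Slc7a7 at steps 8 and 7 with 293 and 319 CPM, 2.51 and 3.46 times the last.

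Brush border carriers were highest at different steps. Slc7a9 and Slc36a1 had peaks of 322 CPM at step 8 and 247 at step 7, and of 27.1 at step 7 and 21.2 at step 6. Slc6a19 was highest at step 9, with 463 and 338 CPM, and kept 445 and 301 CPM in the last. Slc3a1 and Slc6a8 were highest at the last step, with 339 and 337 CPM and with 1103 and 635 CPM. Slc6a4 peaked at steps 5 and 6 with 96.1 and 122 CPM and fell to 37.3 and 37.5 in the last.

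The mid-maturity peaks did not pass a test when early, middle and late stages were compared. In middle enterocytes against the mean of early and late, no member and no gene was called in either direction (background 0% in each; 124 genes had an unadjusted p under 0.05 in edgeR, and DESeq2 called none with 98 such genes). The log2 differences of Slc43a2, Slc36a1 and Slc7a7 were 0.90 ± 0.53, 0.85 ± 0.44 and 0.74 ± 0.57, positive in both rats, each with adjusted p = 1.00. The median was 0.28 for the tested members and -0.01 for all genes.

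**Figure D3:**
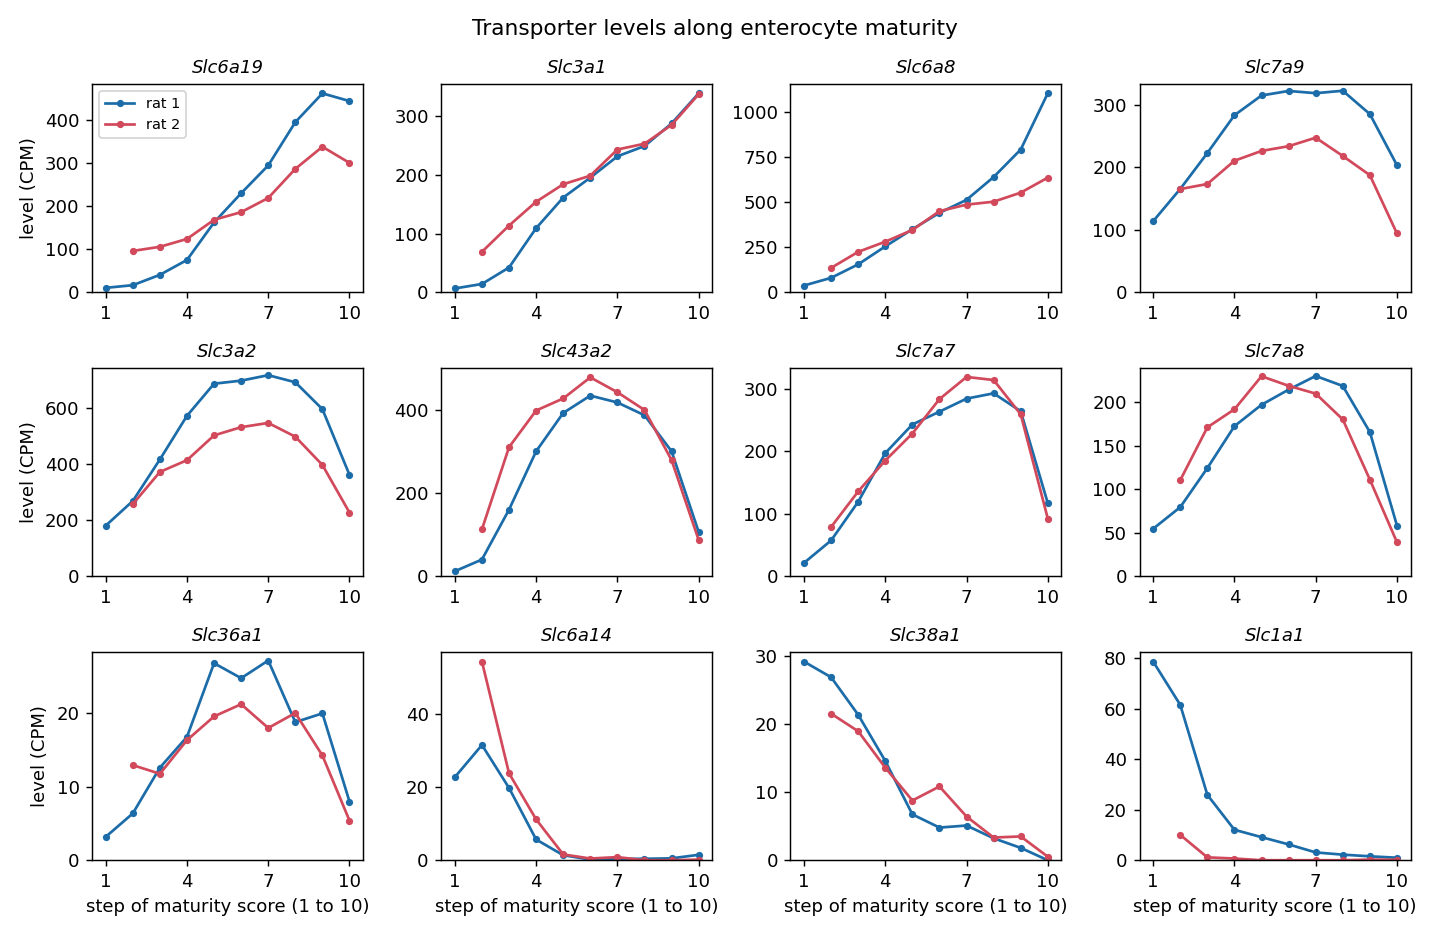
Level in CPM (vertical axis, from 0, own scale per gene) over 10 steps of the maturity score of enterocytes (horizontal axis) for 12 members, with rat 1 in blue and rat 2 in red and 1 point per step with at least 20 cells. Slc3a1 and Slc6a8 climb to the last step, and Slc43a2 peaks at step 6 in both rats. Slc6a14 is highest at step 2, and Slc38a1 in the lowest step shown for each rat.

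The ratio of heavy to light subunit transcripts shifted along the axis. There were 0.0748 UMIs of Slc3a1 per UMI of Slc7a9 in crypt-like cells of rat 1 (95% exact counting interval 0.0581 to 0.0949) and 0.163 in rat 2 (0.0618 to 0.365). The ratio was 0.155 and 0.617 in early, 0.559 and 0.859 in middle, and 0.937 (0.895 to 0.982) and 1.89 (1.80 to 2.00) in late enterocytes. It rose at each step in both rats, and rat 2 stood above rat 1 at each step, with intervals that overlapped only in crypt-like cells. On the basolateral side Slc7a7 went from 0.0546 and 0.0787 UMIs per UMI of Slc3a2 in crypt-like cells to 0.415 and 0.580 in late enterocytes, while Slc7a8 had 0.274 and 0.326 per UMI of Slc3a2 in crypt-like cells, 0.302 and 0.462 in early, 0.302 and 0.429 in middle and 0.292 and 0.282 in late enterocytes. In rat 2 the early (0.423 to 0.504) and middle (0.406 to 0.454) intervals lay above the late one.

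**Figure D4:**
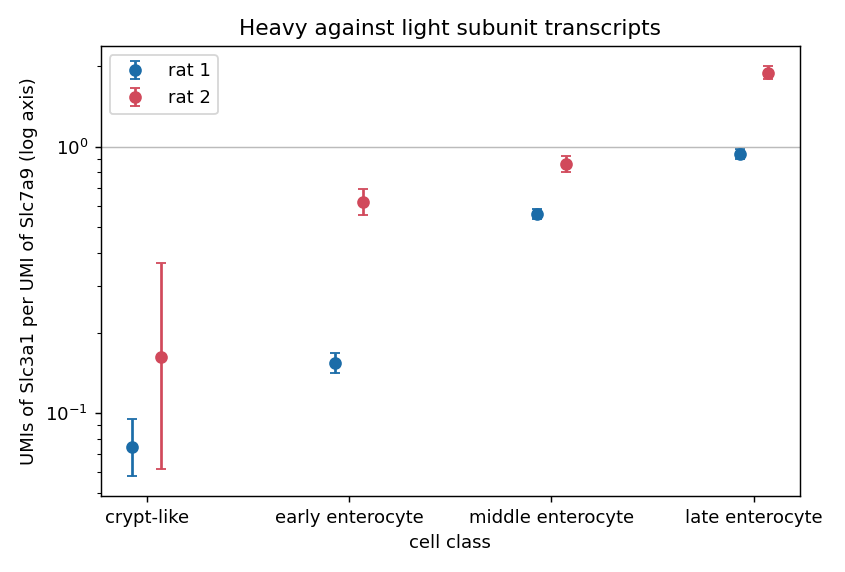
UMIs of Slc3a1 per UMI of Slc7a9 (vertical log axis) in crypt-like cells and early, middle and late enterocytes (horizontal axis), with rat 1 in blue, rat 2 in red and bars for the 95% exact counting interval. The ratio climbs from 0.0748 to 0.937 in rat 1 and from 0.163 to 1.89 in rat 2, and the grey line marks equal numbers.

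Genes that work with these carriers were read in the same comparison. Of 19 partner genes listed 15 were tested, with 10 higher and 1 lower in late enterocytes than in crypt-like cells and a median log2 fold change of 3.88, beside 21.2% and 26.9% of all genes; the 1 that fell was Slc12a8. The aminopeptidase Anpep rose (7.62 ± 1.04), and so did the peptide carrier Slc15a1 (7.43 ± 0.64), the scaffold Pdzk1 (7.26 in rat 1 and 6.39 in rat 2) and the basolateral aromatic amino acid carrier Slc16a10 (3.88 ± 0.88).

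Of 19 genes of amino acid metabolism tested 3 were higher and 5 lower, with a median of -0.33, shares near the 21.2% and 26.9% of all genes. The alanine aminotransferase Gpt rose (5.23 ± 0.53), whereas Shmt1, which interconverts serine and glycine (-5.65 ± 1.21), the urea cycle enzyme Cps1 (-5.25 ± 1.81) and asparagine synthetase Asns (-5.15 ± 0.75) fell; the other calls, named after their values were seen, included Got1 (higher) and Glul and Bcat2 (lower). Of 14 genes of the amino acid stress response 3 rose and 7 fell, beside the same shares of all genes, with a median of -1.10. The serine synthesis enzymes Psat1 (-7.43 ± 1.00) and Phgdh (-5.53 ± 0.78) fell with Asns, and the pseudokinase Trib3 rose (7.72 ± 1.41), as did Ddit3 and Sesn2, also named after their values were seen. All of these are edgeR calls at an adjusted p under 0.05, set beside a median of -0.15 over all genes.

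Levels also differed between clusters of the crypt-like class. In the cluster with the highest stem marker score, with 491 and 19 cells, Slc7a9 was at 40.8 and 32.1 CPM, and in that with the lowest, with 141 and 5 cells, it was at 107 and 116. Slc6a14 went from 10.4 and 14.3 to 24.0 and 94.8 between the same clusters, and Slc6a4 from 10.1 and 14.3 to 32.1 and 84.3. Slc7a5 was at 5.87 and 1.91 CPM in rat 1; in rat 2 it had 6 UMIs in the former cluster and none in the 5 cells of the latter, too few to show a direction. Those 5 cells held Zg16, Tff3 and Fcgbp, goblet transcripts, at 9134, 5984 and 5731 CPM and no UMI of the stem marker Olfm4, against 595, 813, 268 and 30.1 CPM in rat 1. Clusters were not tested against each other, and the part of the goblet transcripts was not tested.

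Against the mean of the log2 levels of the other classes after TMM scaling, 6 members were higher in goblet/Paneth-like cells and none was lower. The backgrounds were 6.74% of genes higher and 0.6% lower, and the median log2 difference was 0.55 for the tested members and 0.11 for all genes. Slc7a11, which brings cystine into the cell in exchange for glutamate, was at 10.3 CPM in rat 1 and 8.82 in rat 2 (5.96 ± 1.03). With 15 and 17 UMIs, it entered the test through this class, so that its call only describes where its UMIs lay. The call was lost with DESeq2 and without the rat 2 sum. Slc1a5 was at 60.5 and 20.2 CPM (4.59 ± 0.72, adjusted p = 0.00116) and Slc7a4 at 24.7 and 15.6 (4.17 ± 0.47, adjusted p = 9.35e-05), and both were called in 14 of 14 alternatives.

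The other 3 calls were less stable. Slc6a5 was at 6.18 and 2.59 CPM (log2 difference 3.86 ± 1.01, adjusted p = 0.0385), Slc7a6, an exchanger of cationic and neutral amino acids, at 4.12 and 3.63 (2.96 ± 0.81, adjusted p = 0.0422), and Slc6a8 at 54.3 and 202 (1.86 ± 0.54, adjusted p = 0.0483), which is below its level in early, middle and late enterocytes of the same rat. Each was lost without the goblet/Paneth-like sum of rat 2. Fewer members were called without either goblet/Paneth-like sum. Slc7a11, Slc6a9 and other members with few UMIs elsewhere entered the test through the class in which they were high. The counts of members called higher in the secretory classes include such calls. The summed leukocyte markers were at 117 and 106 CPM and the erythroid markers at 1333 and 1184 CPM in goblet/Paneth-like cells, and their part was not tested. With DESeq2 593 genes were higher and 153 lower, against 685 and 61. Secretory progenitor-like cells had intermediate levels of Slc7a4, 8.52 and 12.0 CPM, and Slc1a5 at 33.6 and 54.0, from 172 and 9 cells. Transcripts of 8 enterocyte genes were at 0.0283 and 0.0459 of their enterocyte level in goblet/Paneth-like cells, whereas Slc6a8 was at 0.154 (0.122 to 0.192) and 0.447 (0.403 to 0.494) of its own.

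Both goblet/Paneth-like clusters held Slc7a11, at 10.2 and 8.00 CPM in the cluster led by Zg16 (49 and 104 cells) and 10.3 and 10.9 in the cluster led by Tff3, Agr2 and Clca1 (118 and 30 cells). Slc6a8 was at 146 and 271 CPM in the former and 20.7 and 32.6 in the latter. Slc1a5 had the opposite order, with 23.0 and 4.36 CPM against 74.3 and 59.7, as did Slc7a4 with 15.3 and 5.82 against 28.2 and 39.8. The rats contributed these clusters in different numbers, and within each cluster Slc6a8 remained higher in rat 2 and Slc1a5 higher in rat 1.

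EEC-like cells, 21 and 11 in number, held Slc6a19 at a higher level than the other secretory classes, and the hormone-lineage markers Chga and Chgb were among the leading genes of the cluster. In all, 8 members were higher than in the mean of the other classes and none lower, beside 5.53% and 1.23% of genes, with a median log2 difference of 0.62 for the tested members and -0.19 for all genes. Slc6a19 was at 100 CPM in rat 1 and 141 in rat 2, from 18 UMIs in 8 cells and 22 UMIs in 7 cells (3.08 ± 0.47, adjusted p = 0.000620, called in 12 of 12 alternatives). That was 0.577 (0.342 to 0.913) and 0.615 (0.385 to 0.933) of its level in enterocytes, whereas the 8 enterocyte genes stood at 0.0353 and 0.0724 of theirs.

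After each cell was thinned to 5000 UMIs, Slc6a19 was found in 28.6% and 36.4% of EEC-like cells (38.1% and 63.6% unthinned), in 2.40% and 3.73% of goblet/Paneth-like cells (4.79% and 9.70% unthinned) and in 82.6% and 70.0% of late enterocytes. The median depth was 7931 and 12853 UMIs in EEC-like cells and 8409 and 14684 in goblet/Paneth-like cells. In tuft-like cells of rat 1, where the enterocyte genes stood at 0.0843 of their enterocyte level, the thinned share was 21.4% of 28 cells.

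Cltrn (collectrin), which carries Slc6a19 to the membrane in kidney, was at 417 and 276 CPM in EEC-like cells (log2 difference 12.86 ± 0.56). It had 3 UMIs or fewer in every other sum. Cltrn entered the test through the EEC-like class, so that its call only describes where its UMIs lay. Slc6a19 had 0.240 (0.135 to 0.406) and 0.512 (0.291 to 0.874) UMIs per UMI of Cltrn there. Slc15a1 was also higher, at 111 and 103 CPM (2.87 ± 0.38, adjusted p = 0.000192), while Slc7a9 had 0 and 1 UMI and Slc3a1 had 2 and 1.

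Slc7a4 was at 27.8 and 44.9 CPM in EEC-like cells (log2 difference 4.79 ± 0.62, adjusted p = 0.000210, 12 of 12 alternatives) and Slc7a1 at 38.9 and 199 (2.94 ± 0.61, adjusted p = 0.00689, lost without the rat 2 sum). Slc6a5 was at 5.56 and 51.3, Slc7a5 at 5.56 and 44.9 and Slc1a4 at 11.1 and 25.7. Slc7a6 was at 16.7 and 12.8 and Slc6a7, a proline carrier of nerve cells, at 5.56 and 12.8. Each had 8 UMIs or fewer per rat (adjusted p from 0.00219 to 0.0483). In rat 1 Slc6a5, Slc7a5 and Slc6a7 had 1 UMI each and Slc1a4 had 2, under the 3 UMIs that a count of 0 allows. The calls held in 10 of 11 alternatives for Slc6a5, 9 of 12 for Slc7a5 and 8 of 12 for Slc1a4. They held in 8 of 11 for Slc7a6 and 5 of 12 for Slc6a7, and each was lost without the rat 2 sum. For Slc7a5 in rat 2, 6 of the 7 UMIs came from 1 cell. Slc38a11, too sparse to be tested and named after its values were seen, had its 2 and 4 UMIs in EEC-like cells and none elsewhere in the 9 classes. Slc6a4 had no UMI in EEC-like cells of either rat, where 3 UMIs would be 16.7 and 19.2 CPM. With a limit of 20% mitochondrial UMIs 4 members were called, beside 580 genes higher and 99 lower. Fewer members were also called without either EEC-like sum.

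Of the members called in tuft-like cells, the glycine transporter Slc6a9 had the largest difference, and it rested on rat 2. In this class 3 members were called higher and none lower, beside 5.26% and 0.719% of genes, and the median log2 difference was -0.32 for the tested members and 0.13 for all genes. Slc6a9 was at 6.84 CPM in rat 1, from 2 UMIs, and at 68.1 in rat 2 (log2 difference 7.91 ± 0.98). The rat 2 level came from 65 UMIs in 49 of 119 cells. Slc6a9 entered the test through this class, so that its call only describes where its UMIs lay. The rat 1 count lay under the 3 UMIs, 10.3 CPM, that a count of 0 allows. In rat 2 the thinned share was 31.1% in tuft-like cells (41.2% unthinned) against 1.49% in goblet/Paneth-like cells, at median depths of 7677 and 14684 UMIs. Its rat 2 level was 891 times (237 to 7517) that of enterocytes, which held 2 UMIs.

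Slc7a5 was at 13.7 and 41.9 CPM in tuft-like cells, from 4 and 40 UMIs (log2 difference 3.48 ± 0.68, adjusted p = 0.00624). That call was lost with a limit of 20% mitochondrial UMIs. Slc1a4 had no UMI in the 28 cells of rat 1 and 19.9 CPM in rat 2 (2.70 ± 0.72, adjusted p = 0.0427); 0 UMIs in rat 1 allow up to 10.3 CPM, so that rat 1 shows no direction. Without the rat 2 sum no member was called. The summed erythroid markers were at 44.4 CPM in rat 1 and 2708 in rat 2 and the enterocyte genes at 0.0843 and 0.379 of their enterocyte level. The stem marker Olfm4 was at 725 CPM in tuft-like cells of rat 1, beside 738 in its crypt-like cells, and at 0 in rat 2. The cycling marker Mki67 was at 185 and 66.0 CPM in tuft-like cells. The part of all these transcripts in these values was not tested.

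Slc38a2 had the highest mean level of the 2 rats in CHE-like cells, although Slc7a9 stood above it in rat 1. Here 2 members were higher and none lower, beside 8.25% and 2.34% of genes (3 higher and 2 lower with the rat as a block), and the median log2 difference was -1.21 for the tested members and -0.16 for all genes. Slc38a2 was at 88.8 CPM in rat 1, from 6 UMIs among 7 cells, and 171 in rat 2, from 165 UMIs among 72 cells (1.85 ± 0.55, adjusted p = 0.0450). This call held in 8 of 14 alternatives. Slc6a7 had 1 and 8 UMIs, 14.8 and 8.30 CPM (4.99 ± 0.93). Slc6a7 entered the test through this class, so that its call only describes where its UMIs lay. Its rat 1 count lay under the 3 UMIs, 44.4 CPM, that a count of 0 allows. Slc6a8 was at 14.8 and 158 CPM (1.38 ± 0.58, adjusted p = 0.150), and Slc7a9 at 133 and 9.34 from 9 UMIs in each rat. The leukocyte markers summed to 592 and 159 CPM and the erythroid markers to 74.0 and 2130, whose part was not tested. With DESeq2 727 genes were higher and 399 lower, against 838 and 238. DESeq2 called none of the members, and neither did the edgeR fit without the rat 2 sum.

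**Figure D5:**
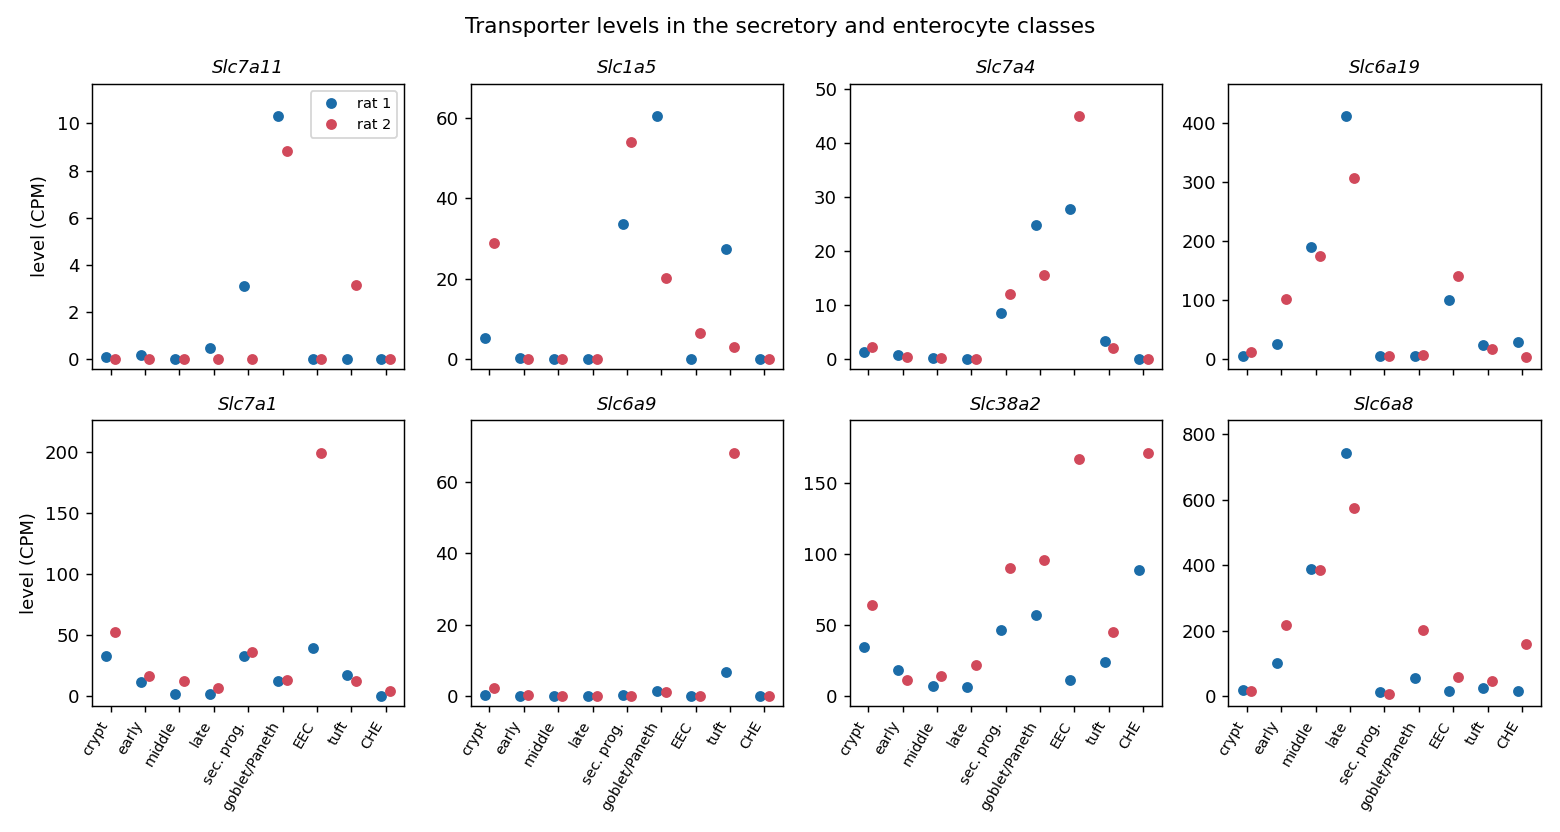
Level in CPM (vertical axis, own scale per gene) of 8 members in the 9 classes (horizontal axis; sec. prog., secretory progenitor-like), with 1 point per rat, rat 1 in blue and rat 2 in red. Slc7a11 stands highest in goblet/Paneth-like cells at 10.3 and 8.82 CPM, Slc6a9 in tuft-like cells of rat 2 at 68.1, and Slc6a19 reaches 100 and 141 in EEC-like cells.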

How the data were processed

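Single-cell RNA of proximal jejunal epithelium was measured in 2 rats, 1 library each, and 61 transporter genes were read in them. The deposited matrices hold raw UMI counts per gene and cell made by the authors, with Cell Ranger and build rn6 named in the submitters' processing notes. No cell annotation was used, and the number of unused columns was 0.

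Cells with more than 5000 UMIs, 200 to 5800 genes and at most 40% mitochondrial UMIs were integrated and clustered in Seurat 5.3.0 (R 4.3.3; 2000 variable genes without the members, 20 components, resolutions 0.3 and then 0.5). Leukocyte and erythroid clusters and cells with at most 10 UMIs of epithelial keratins and Epcam were left out, as were 214 and 54 cells of unnamed clusters. Clusters were named from fixed markers, with thresholds set after the clusters were seen. Scrublet (scanpy 1.11.5, Python 3.11.15) called 116 and 5 doublets, which were kept and removed as an alternative. The 8 genes used to gauge enterocyte transcripts in other classes are abundant enterocyte genes.

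Counts were summed over 9 classes and 2 rats (18 sums). All were fitted together by edgeR 4.0.16 (filterByExpr, TMM, quasi-likelihood test, Benjamini-Hochberg over 10159 genes, threshold 0.05), which was tested on simulated data. Differences per rat used a prior count of 2. Ratios carry 95% exact intervals (scipy 1.17.1) and the limit for a count of 0 is 3 UMIs. The classes were defined from other genes of the same cells. Sums of the same rat are paired by animal: over 36 pairs of classes their deviations correlated with a median r of 0.202 (0.0701 to 0.740). DESeq2 1.42.0, filters, scaling, clustering and maturity settings were varied, and scaling by total UMIs and leaving out single sums were chosen after seeing the data.

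Named members were up to 10 called members per direction and comparison with the same direction in both rats, a list of textbook intestinal and supply carriers, and the 3 most abundant per class, plus up to 4 genes of each other list with Cltrn, Slc15a1 and Slc16a10. A few genes of these lists are not reported here. The members and lists were chosen with earlier results of these data known.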

Additional observations from a re-analysis of the deposited data

Results flagged for a closer look

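Both signals came from cells left out of the 9 epithelial classes. Slc38a5, a glutamine carrier also known from red cell precursors, had 27 UMIs in the erythroid clusters, 2 in rat 1 and 25 in rat 2, and none in the 9 classes. Slc6a12, a betaine and GABA carrier, had 4 UMIs in the leukocyte clusters and none in the 9 classes. Neither was tested.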

How the results depend on the processing

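Of 760 alternative values over 42 named results, 674 carried a test, and the others were mostly log2 differences of a single rat. The same result was kept by 611 values. For a tested value this meant direction and call. A single-rat difference had to lie within the standard deviation of the 2 rats from the fitted value. Of the rest, 105 lost the call, 42 single-rat differences moved further from the fitted value and 2 values reversed. In every alternative run, 18 of the results were called. Counts of all genes called higher and lower stand in brackets. Late against early enterocytes gave 5 members (482 and 631 genes), and 8 without a filter on low counts (874 and 1124). It gave 10 with the rat as a replicate block (1322 and 1591). It gave 0 with maturity stages cut within each rat (77 and 47 genes) or from brush border enzymes (0 and 1 genes). Goblet/Paneth-like cells gave 6 (685 and 61 genes). They gave 3 with DESeq2 (593 and 153), with at most 20% mitochondrial UMIs (684 and 51) or with total UMIs (435 and 108). Tuft-like cells gave 3 (534 and 73 genes), and 1 at 20% mitochondrial UMIs (496 and 64). EEC-like cells gave 8 (562 and 125 genes), 4 at 20% (580 and 99) and 7 with the block (663 and 222). They gave 5 at cluster resolution 1.0 (506 and 99) or with cells without epithelial transcripts kept (510 and 112). CHE-like cells gave 2 (838 and 238 genes), 6 without the filter (1097 and 447) and 0 with DESeq2 (727 and 399). With the block they gave 5, 3 higher and 2 lower (1050 and 458 genes). They gave 1 at 20% (697 and 567), at resolution 1.0 (649 and 117), with those cells kept (747 and 199) or with total UMIs (613 and 270). Late against crypt-like gave 18 (2155 and 2733 genes), and 20 with the block (2690 and 3262). Leaving out a sum of the classes compared gave 14 to 17 members for late against crypt-like, 0 to 4 for late against early, 2 to 5 for goblet/Paneth-like, 0 to 3 for tuft-like, 2 to 5 for EEC-like and 0 to 3 for CHE-like. Slc1a4 in tuft-like cells reversed to -5.92 without the tuft-like sum of rat 2 (3.45 without that of rat 1) and to -2.99 without rat 2. The cause of these changes was not tested. EEC-like cells gave no value without the upper limit on genes or with members among the variable genes, since no cluster took that name. The 44 crypt-like cells of rat 2, the 7 CHE-like cells of rat 1 and the 21 and 11 EEC-like cells limit what depth could show.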
